A study of Sus scrofa with 12 samples.

Results

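Among 22861 genes measured in pig aortic valve interstitial cells, this report describes a set of 10 genes of epidermal growth factor (EGF) receptor signalling. The set holds the ligands AREG, EREG and HBEGF, the receptor EGFR, the MAP kinase phosphatases DUSP1, DUSP4, DUSP5 and DUSP6, and the Sprouty proteins SPRY2 and SPRY4. Members were found by their gene name in the gene table, which held a row for 8 of the 10. No row for EGFR or DUSP6 was found by name, by gene ID or by description, and both are not analysed here. All 8 that were found passed the expression filter, an RPKM (reads scaled to exon length and to the library total) of at least 1 in at least 3 of the 12 libraries. EREG passed with 6 libraries at or above 1 RPKM, DUSP4 with 10 and the other 6 members with 12.

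Valve interstitial cells are the fibroblast-like cells that keep up the matrix of the heart valve leaflet. Pig cells had been cultured on glass, the stimulus for calcification, in DMEM, with 3 biological replicates in each of 4 groups. Stage 1 was collected at day 5 and Stage 2 at day 8, both with no added agent. The remaining groups reached Stage 3 and then received either the solvent DMSO (Stage 3+DMSO) or KPT (Stage 3+KPT), in cultures grown for up to 12 days. The sources used here do not state the day of the Stage 3 libraries or the dose and duration of KPT. KPT is not spelled out in the labels. Drugs with code names of that form are known to inhibit the nuclear export receptor XPO1, and which one was added is not stated. Stage 3+DMSO differed from Stage 2 in solvent as well as in stage, and the labels do not tie replicates to separate animals, so every test measured the spread between these cultures.

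EGF-family ligands are made as membrane-anchored precursors and are released by ADAM-family metalloproteases. They bind receptors of the ERBB family, which signal through RAS, RAF and MEK to the kinase ERK. ERK activity raises transcription of immediate early genes and of its own restraints, among them the dual-specificity phosphatases, which remove phosphate from MAP kinases, and the Sprouty and Spred proteins, which act near RAS and RAF. In heart valves, EGF receptor signalling and HBEGF are known from the formation of normal leaflets.

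The members were chosen by their RPKM values in these same 4 groups, which were known beforehand, so their levels and differences below are a description and carry no test. Library totals recovered from the deposited values ran from 13188023 to 24724019, and correlations across genes between replicates ran from 0.985 to 0.994. Stage 3+DMSO replicate 1 stood apart among the members. It had the highest AREG of its group and the lowest HBEGF, DUSP1, DUSP4, DUSP5 and SPRY2, and values without it are given for the differences that it moved most. Differences are log2 fold changes of RPKM + 1 with their standard error (SE), each from a limma fit over all 12 libraries, and levels are mean RPKM ± SD over 3 libraries.

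AREG encodes amphiregulin, a ligand of EGFR. The gene (ENSSSCG00000008963) was listed on chromosome 8 from 74568826 to 74579007 on the plus strand, with 1213 bases of exon. Its level was 29.9, 31.6 and 26.9 RPKM in the Stage 1 libraries, 12.1, 11.2 and 11.8 in Stage 2, 11.6, 4.18 and 5.27 in Stage 3+DMSO, and 1252, 1109 and 1222 in Stage 3+KPT. The KPT libraries thus stood far above every other library, Stage 1 stood above Stage 2 with no overlap, and only Stage 2 and Stage 3+DMSO overlapped, through replicate 1 of the latter. From Stage 1 (29.5 ± 2.38) to Stage 2 (11.7 ± 0.487) AREG differed by a log2 fold change of -1.26 (SE 0.23). Between Stage 2 and Stage 3+DMSO (7.0 ± 3.99) it was -0.77 (SE 0.23). That value was -1.15 without Stage 3+DMSO replicate 1 and no longer called without replicate 2 (-0.51) or 3 (-0.65). With KPT the mean was 1194 ± 75.7 RPKM, 170.49 times the DMSO mean. The log2 fold change of 7.33 (SE 0.23) ranked 1 of 13046 tested genes by size, and it was 7.71 without Stage 3+DMSO replicate 1. That rank belongs to the RPKM + 1 scale. With 0.1 added in place of 1, AREG differed by 7.53 and EREG by more, 8.04.

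The AREG difference was present along the whole transcript. The exon table lists 6 exon rows for the gene, and in all 6 the KPT libraries lay above the DMSO libraries, by mean ratios of 126.67 to 245.87. The lowest ratio was in the row nearest the 5′ end and the highest in the fourth. Stage 1 lay above Stage 2 in all 6 rows as well. For EREG, HBEGF, DUSP1 and DUSP5 that held in 2 of 4, 4 of 7, 11 of 14 and 3 of 4 exon rows. The group sums were 1910 reads in Stage 1, 765 in Stage 2, 514 in Stage 3+DMSO and 87741 in Stage 3+KPT. In Stage 2 the single libraries held 216, 265 and 284 AREG reads.

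EREG encodes epiregulin, a ligand of EGFR and ERBB4. Its gene (ENSSSCG00000008962) was listed on chromosome 8 from 74515115 to 74519617 on the plus strand, with 444 bases of exon. The level was 1.71, 1.37 and 2.06 RPKM in Stage 1, 0.765, 0 and 0.454 in Stage 2, 0.227, 0 and 0 in Stage 3+DMSO, and 46.8, 38.2 and 32.9 in Stage 3+KPT. Like AREG, EREG was highest with KPT and next highest in Stage 1, while Stage 2 and Stage 3+DMSO overlapped at or near 0. The group means were 1.71 ± 0.346, 0.407 ± 0.385, 0.0758 ± 0.131 and 39.3 ± 7.03 RPKM in the same order. The differences were -0.98 (SE 0.20) from Stage 1 to Stage 2 and 5.22 (SE 0.20) with KPT, rank 11 by size among all tested genes.

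Few reads stood behind the low EREG values. The gene had 41 reads over the 3 libraries of Stage 1, 9 in Stage 2, 2 in Stage 3+DMSO and 1028 in Stage 3+KPT. Per library total, the ratio of KPT to DMSO reads was 513.93, with an exact 95% interval (Clopper-Pearson on the split of the reads) from 141.91 to 4249.4, and that of Stage 2 to Stage 1 reads was 0.217, from 0.0929 to 0.454. These intervals cover counting error only. The log2 fold change of EREG depends on the added constant. With KPT it was 8.04 at a pseudocount of 0.1 and 8.65 with limma-voom on recovered reads. AREG was lower than EREG in both, at 7.53 and 7.56. All 4 exon rows of EREG were higher in every KPT library than in any DMSO library, and none of the 4 rows held 10 or more reads in Stage 3+DMSO.

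HBEGF encodes heparin-binding EGF-like growth factor, a ligand of EGFR and ERBB4. The gene (ENSSSCG00000014362) was listed on chromosome 2 from 148046706 to 148058378 on the minus strand, with 1492 bases of exon. It measured 6.35, 10.3 and 6.24 RPKM in Stage 1, 1.82, 2.05 and 2.1 in Stage 2, 1.39, 2.63 and 3.36 in Stage 3+DMSO, and 9.14, 7.82 and 8.89 in Stage 3+KPT. Stage 1 (7.64 ± 2.33) and Stage 3+KPT (8.62 ± 0.700) overlapped at the top, and Stage 2 (1.99 ± 0.147) and Stage 3+DMSO (2.46 ± 0.997) overlapped below them. The difference was -1.50 (SE 0.21) from Stage 1 to Stage 2 and 0.17 (SE 0.21) from Stage 2 to Stage 3+DMSO, or 0.41 without Stage 3+DMSO replicate 1. With KPT it was 1.52 (SE 0.21), a ratio of means of 3.51, and 1.27 without Stage 3+DMSO replicate 1. HBEGF therefore stood in KPT near its Stage 1 level, whereas AREG and EREG stood far above theirs.

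Of the 7 exon rows of HBEGF, 6 held 10 or more reads in Stage 3+DMSO, and their KPT to DMSO ratios ran from 2.36 to 5.07. The remaining row was 14 bases long and held 3 reads with KPT and 0 with DMSO. All 7 rows were higher in each KPT library than in any DMSO library, so the HBEGF difference did not rest on one exon.

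**Figure D1:**
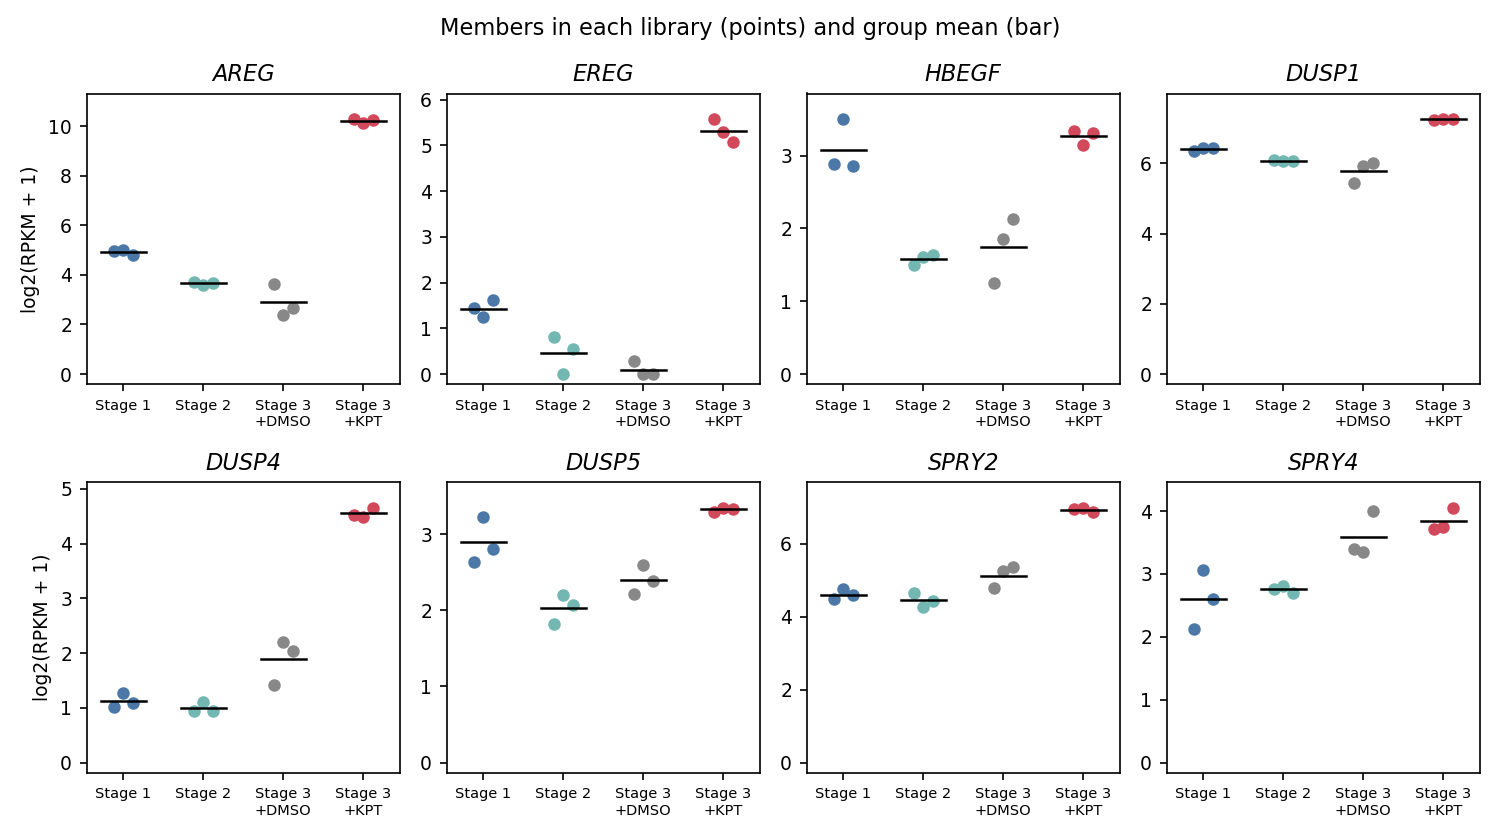
Level of each of the 8 members in the 12 libraries, as log2(RPKM + 1) on the vertical axis, with one point per library, a bar at the mean of the 3 plotted values and the 4 groups on the horizontal axis. AREG and EREG stand far above all other groups with KPT, HBEGF and DUSP5 are low in Stage 2 and Stage 3+DMSO and high in Stage 1 and Stage 3+KPT, and SPRY4 overlaps between the Stage 3 groups.

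RPKM is scaled to exon length, so the 3 ligands can be set side by side as far as their listed exons allow. Those exons cover 1213 bases for AREG, 1492 for HBEGF and 444 for EREG. The EREG length is a multiple of 3 and may cover coding sequence alone, so the shares depend on the annotation. Their summed level was 38.8 ± 4.11 RPKM in Stage 1, 14.1 ± 0.780 in Stage 2, 9.54 ± 3.28 in Stage 3+DMSO and 1242 ± 79.0 in Stage 3+KPT. AREG was the most abundant of the 3 in every library. It made up 76.0% ± 2.94 of the sum in Stage 1, 83.0% ± 1.24 in Stage 2, 70.1% ± 15.3 in Stage 3+DMSO and 96.1% ± 0.497 in Stage 3+KPT. The wide spread in Stage 3+DMSO came from replicate 1, where AREG held 87.8% of the sum against 61.4% and 61.1% in replicates 2 and 3. HBEGF made up 19.4% ± 3.88 in Stage 1 and 0.693% ± 0.0139 in Stage 3+KPT, and EREG 4.51% ± 1.35 and 3.16% ± 0.503. HBEGF was thus the second ligand in 9 libraries and the last of the 3 with KPT, although its own level there was not below Stage 1.

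**Figure D2:**
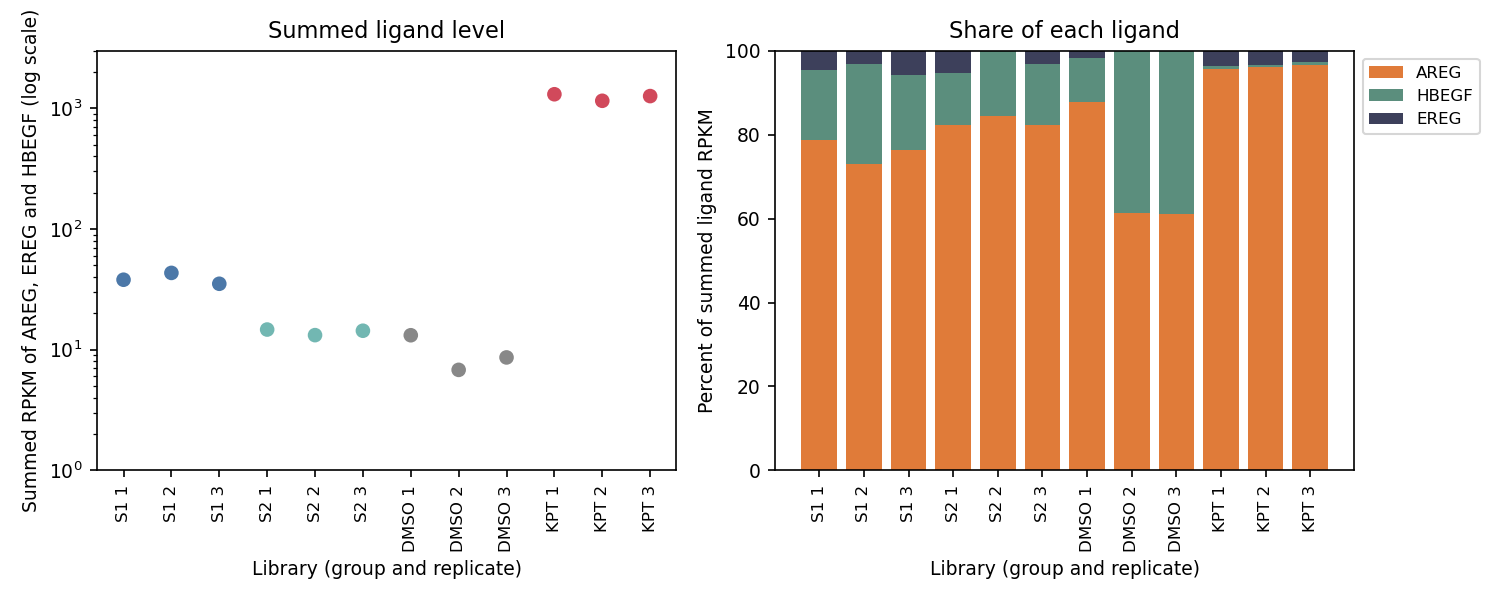
Left, summed RPKM of AREG, EREG and HBEGF in each library on a log axis. Right, percent of that sum from each ligand as stacked bars from 0 to 100. S1 is Stage 1, S2 is Stage 2, and DMSO and KPT are the Stage 3 groups, each with its replicate number. The sum runs from 6.81 to 13.2 in the DMSO libraries and from 1155 to 1308 with KPT, where AREG takes 95.7% to 96.7%.

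AREG and EREG are neighbours. On the coordinates of the gene table, whose genome build the sources used here do not name, 49208 bases lay between them on the same strand, with 0 genes listed between. Within 250 kb on either side the table listed 7 genes, both members included. BTC, which encodes the ligand betacellulin, followed AREG on the same strand at 0.399 ± 0.216 RPKM with DMSO and 1.23 ± 0.496 with KPT, a difference of 0.66 (SE 0.27, adjusted p = 0.0487) whose call was lost in 10 of 22 alternatives. On the other side, the chemokine gene CXCL2 rose from 2.23 ± 0.534 to 116 ± 16.4 RPKM (5.19 on the log2 scale, SE 0.21, adjusted p = 6.66e-10). Its listed span overlaps that of ENSSSCG00000008954, an unnamed protein-coding gene that rose by 3.53 (SE 0.18, adjusted p = 3.42e-09), so reads of these overlapping genes may have been shared. MTHFD2L, a mitochondrial folate enzyme gene between CXCL2 and EREG, stood at 1.17 ± 0.144 and 0.780 ± 0.309 RPKM (adjusted p = 0.232). The neighbours of EREG and AREG thus did not all move with them.

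**Figure D3:**
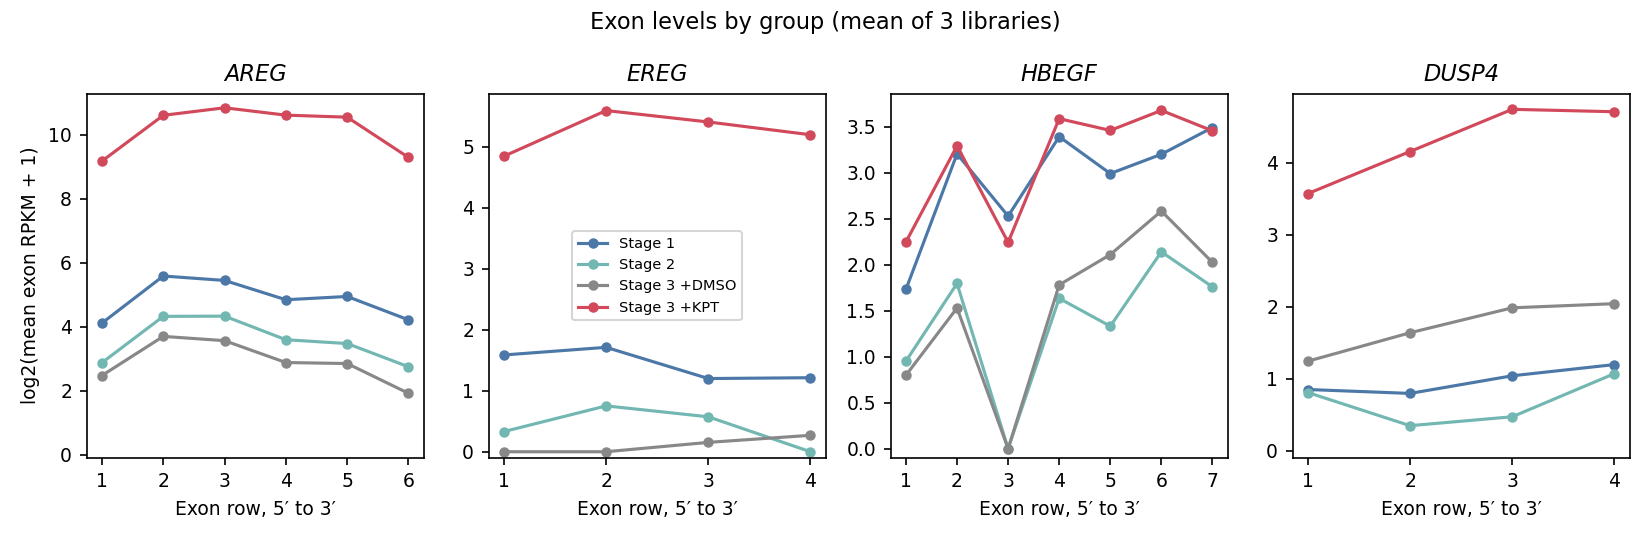
Mean level of each exon row, as log2(mean exon RPKM + 1), in order from 5′ to 3′ for AREG, EREG, HBEGF and DUSP4, with one line per group of 3 libraries. The KPT line lies above the DMSO line in every row of these 4 genes, and for AREG the ratio of means is between 126.67 and 245.87 in each row.

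DUSP1 is a nuclear phosphatase of ERK, p38 and JNK and an immediate early gene. The gene (ENSSSCG00000016991) was listed on chromosome 16 from 55768409 to 55771513 on the plus strand. Its level was 80.2, 85.1 and 84.8 RPKM in Stage 1, 66.9, 65.7 and 65.9 in Stage 2, 42.1, 59.4 and 62.9 in Stage 3+DMSO, and 149.7, 152.2 and 151.1 in Stage 3+KPT. The 4 groups did not overlap, in the order KPT, Stage 1, Stage 2, DMSO, and DUSP1 had the highest RPKM of the members in each of the 3 groups without KPT. The means were 83.4 ± 2.74, 66.2 ± 0.639, 54.8 ± 11.1 and 151 ± 1.24 RPKM. From Stage 1 to Stage 2 the difference was -0.33 (SE 0.11), and its call was lost without any one of the 6 libraries of those stages (-0.36 to -0.31), after median-ratio rescaling (-0.28), with no filter and with no trend. From Stage 2 to Stage 3+DMSO it was -0.29 (SE 0.11) and not called. That difference was called after median-ratio rescaling (-0.45), and with quantile normalization, limma-voom or a minimum RPKM of 5. It was also called without Stage 3+DMSO replicate 2 (-0.36) or 3 (-0.40), and was -0.11 without replicate 1. With KPT the difference was 1.47 (SE 0.11), a ratio of 2.76, and 1.29 without that replicate. The exon table holds 14 rows for DUSP1, some of which overlap, and KPT exceeded DMSO in all 14, by 1.91 to 2.98 times.

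DUSP4, also a nuclear phosphatase and one whose transcription ERK raises, is encoded by ENSSSCG00000015850 on chromosome 15 from 62906029 to 62923416 on the plus strand. The libraries measured 1.02, 1.42 and 1.12 RPKM in Stage 1, 0.913, 1.14 and 0.912 in Stage 2, 1.66, 3.6 and 3.12 in Stage 3+DMSO, and 22.0, 21.4 and 24.3 in Stage 3+KPT. Stage 1 and Stage 2 overlapped at the bottom, Stage 3+DMSO lay above both, and KPT lay above all. The order therefore differed from that of the ligands and of DUSP1, which were higher in Stage 1 than in Stage 3+DMSO. The DUSP4 mean was 2.79 ± 1.0 RPKM with DMSO and 22.6 ± 1.53 with KPT, 8.09 times higher, with a log2 fold change of 2.67 (SE 0.18), or 2.44 without Stage 3+DMSO replicate 1. Between Stage 2 and Stage 3+DMSO it was 0.89 (SE 0.18), or 1.13 without that replicate. The 4 exon rows had KPT to DMSO ratios within 7.97 to 8.71.

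DUSP5 is a nuclear phosphatase that acts on ERK and is itself induced by it. It is encoded by ENSSSCG00000010624 on chromosome 14 from 131791153 to 131804261 on the plus strand. The level was 5.22, 8.34 and 6.0 RPKM in Stage 1, 2.52, 3.58 and 3.21 in Stage 2, 3.64, 5.04 and 4.23 in Stage 3+DMSO, and 8.74, 9.19 and 9.09 in Stage 3+KPT. No groups overlapped, in the order KPT, Stage 1, DMSO, Stage 2. DUSP5 with KPT thus lay above every Stage 1 library, whereas HBEGF with KPT overlapped with Stage 1. KPT was not tested against Stage 1. The difference was -0.86 (SE 0.16) from Stage 1 to Stage 2 and 0.92 (SE 0.16) with KPT, a ratio of 2.09, or 0.83 without Stage 3+DMSO replicate 1. From Stage 2 to Stage 3+DMSO it was 0.37 (SE 0.16), which was not called in the fit of all libraries and was called without Stage 1 replicate 2 (0.37) or Stage 3+DMSO replicate 1 (0.46). KPT lay above DMSO in every library for 3 of the 4 exon rows, with ratios of 1.74 to 2.22. In the remaining row, with a ratio of 1.69, the libraries overlapped.

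SPRY2 and SPRY4 are Sprouty proteins, which ERK signalling induces and which dampen receptor tyrosine kinase signalling in turn. Each had a single exon row with a length that is a multiple of 3, 948 and 900 bases, and so may cover coding sequence alone. SPRY2 (ENSSSCG00000009482) was listed on chromosome 11 from 56943821 to 56944768 and SPRY4 (ENSSSCG00000014397) on chromosome 2 from 150066068 to 150066967, both on the minus strand.

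SPRY2 was at 21.3, 26.0 and 23.2 RPKM in Stage 1, 24.3, 18.3 and 20.6 in Stage 2, 26.4, 36.8 and 39.9 in Stage 3+DMSO, and 122.2, 126.4 and 115.6 in Stage 3+KPT. Stage 1 and Stage 2 overlapped, and both Stage 3 groups lay above them, as for DUSP4. The means were 34.4 ± 7.07 with DMSO and 121 ± 5.47 with KPT, a ratio of 3.53. The log2 fold change was 1.81 (SE 0.14), or 1.64 without Stage 3+DMSO replicate 1, after 0.67 (SE 0.14), or 0.84 without it, from Stage 2 to Stage 3+DMSO.

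SPRY4 was at 3.37, 7.39 and 5.09 RPKM in Stage 1, 5.74, 6.01 and 5.49 in Stage 2, 9.53, 9.22 and 15.0 in Stage 3+DMSO, and 12.1, 12.4 and 15.6 in Stage 3+KPT. Stage 1 and Stage 2 overlapped, and so did the Stage 3 groups, which lay above them. The step was 0.83 (SE 0.22) from Stage 2 (5.75 ± 0.260) to Stage 3+DMSO (11.2 ± 3.23) and 0.25 (SE 0.22) from there to Stage 3+KPT (13.4 ± 1.97). Without Stage 3+DMSO replicate 1 these were 0.92 and 0.16. SPRY4 was the one member not called with KPT, and the difference between its response and that of SPRY2 was not tested.

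**Figure D4:**
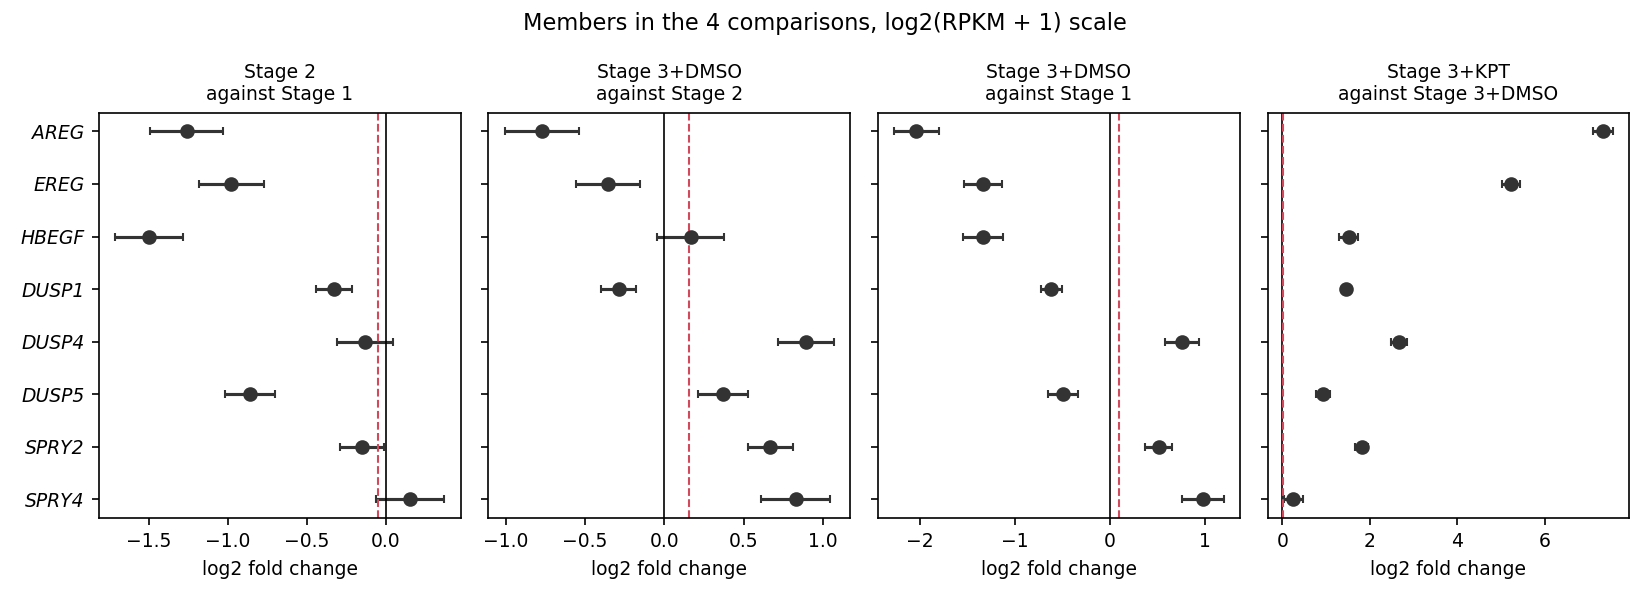
Log2 fold change (horizontal axis, log2(RPKM + 1) scale) of the 8 members in each of the 4 comparisons, with SE as bars. The dashed line marks the median of all 13046 tested genes and each panel has its own scale. The ligands lie left of 0 from Stage 1 to Stage 2 and right of it with KPT, where AREG is at 7.33 and SPRY4 at 0.25.

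By comparison, the counts of members called (Benjamini-Hochberg adjusted p under 0.05 over all tested genes) were as follows, with the share of all tested genes called as background. From Stage 1 to Stage 2, 5 of the 8 members were called lower (AREG, EREG, HBEGF, DUSP1 and DUSP5), 0 higher and 3 not, where 24.4% of all genes were called lower and 16.3% higher. The same 5 were the members whose Stage 1 and Stage 2 libraries did not overlap, 5 lower and 0 higher, where 31.0% of all genes were lower without overlap and 21.5% higher. The members' median log2 fold change was -0.60, against -0.05 over all genes. From Stage 2 to Stage 3+DMSO, 3 were called higher (DUSP4, SPRY2 and SPRY4) and 1 lower (AREG), where 33.0% of all genes were called higher and 11.1% lower and 44.1% either way. Without overlap 4 members were higher (DUSP5 in addition) and 1 lower (DUSP1), where 37.9% and 13.2% of all genes were. From Stage 1 to Stage 3+DMSO, DUSP4, SPRY2 and SPRY4 were called higher and AREG, EREG, HBEGF, DUSP1 and DUSP5 lower, where 30.5% and 17.3% of all genes were called. All 8 were without overlap, 3 higher and 5 lower, where 36.7% and 22.2% of all genes were. The DUSP5 value there, -0.49, was not called without Stage 1 replicate 2 (-0.32) or Stage 3+DMSO replicate 1 (-0.40) or 3 (-0.49). With KPT, 7 of the 8 were called higher and 0 lower, where 30.5% of all genes were called higher and 60.0% called either way, and the median was 1.66 for the members and 0.02 for all genes. The 7 were also higher without overlap and 0 were lower, where 33.7% and 31.5% of all genes were. The members were picked with these contrasts known, so nothing is read from the counts against the background, and the comparisons share the Stage 1, Stage 2 or DMSO libraries.

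The scaling of the libraries moved the balance of calls, most in the comparisons of Stage 3+DMSO with earlier stages. Of all genes called from Stage 2 to Stage 3+DMSO, 74.9% were higher on the deposited scale and 50.7% after median-ratio rescaling, which took the median log2 fold change from 0.15 to 0.01. From Stage 1 to Stage 3+DMSO the split was 63.8% and 48.0%, and from Stage 1 to Stage 2 it was 40.1% and 48.6%. Called members kept their direction under the rescaling. From Stage 2 to Stage 3+DMSO, DUSP4 was at 0.80, SPRY2 at 0.51, SPRY4 at 0.68 and AREG at -0.92, and AREG was at 7.31 with KPT. For DUSP1 the call from Stage 1 to Stage 2 was lost, and a call from Stage 2 to Stage 3+DMSO was gained (-0.45).

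The rest of the pathway was read from 8 lists with 81 further genes, of which 72 had a row and 63 were tested. Those without a row were EPGN, ERRFI1, HRAS, MAPK3, DUSP8, DUSP16, DUSP22, FOSB and ETV5. The lists too were chosen with earlier results of these data known. Their counts and adjusted p-values are therefore a description and no independent support for the members. With KPT, 31 of the 63 rose, 13 fell and 19 were not called, 69.8% called against 60.0% of all genes, with a median log2 fold change of 0.35. The counts for single lists below stand beside 30.5% of all genes called higher and 29.5% called lower with KPT, and no list was tested as a set. All adjusted p-values are from limma over all tested genes, and higher or lower here means past the threshold.

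All 4 tested genes among the other Sprouty and Spred genes rose with KPT, with a median log2 fold change of 0.74. SPRY1, a paralogue of SPRY2 and SPRY4, was at 12.9, 14.8 and 15.9 RPKM with DMSO and 199.3, 206.9 and 210.2 with KPT (log2 fold change 3.74, SE 0.09, adjusted p = 8.82e-12), where SPRY2 differed by 1.81. It too was already higher in Stage 3+DMSO than in Stage 2 (1.2, SE 0.09, adjusted p = 8.06e-07), and from Stage 1 to Stage 2 it differed by -0.08 (adjusted p = 0.498). SPRED1 rose by 0.83 (adjusted p = 2.48e-04), SPRED2 by 0.66 (adjusted p = 6.93e-05) and SPRED3 by 0.51 (adjusted p = 2.39e-04).

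Among ERK-responsive and early response genes 10 of 15 rose with KPT and 1 fell, with a median of 0.68. ETV4, an ETS transcription factor downstream of receptor tyrosine kinases, measured 7.79, 11.1 and 13.96 RPKM with DMSO and 142.4, 164.0 and 159.2 with KPT (3.74, SE 0.15, adjusted p = 6.01e-10). The receptor tyrosine kinase EPHA2 rose from 20.4 ± 2.06 to 127 ± 7.19 RPKM (2.58, adjusted p = 1.68e-10) and the early response gene IER3 from 52.9 ± 6.13 to 224 ± 14.4 (2.07, adjusted p = 8.22e-10). The zinc finger factors EGR1 (1.44, adjusted p = 3.45e-07) and EGR2 (1.40, adjusted p = 5.01e-04) rose, as did ELK3 (1.31, adjusted p = 9.94e-09) and JUNB (0.92, adjusted p = 8.39e-06). EGR2 was uneven with DMSO, at 8.23, 20.5 and 23.4 RPKM in replicates 1, 2 and 3. Its difference was as low as 0.96 among 23 alternatives. Not every early gene was called, since FOS differed by 0.24 (adjusted p = 0.104), FOSL1 by 0.23 (adjusted p = 0.124) and EGR3 by -0.11 (adjusted p = 0.689). MYC fell from 25.2 ± 5.14 to 14.2 ± 0.471 RPKM (-0.77, adjusted p = 3.04e-04).

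The other MAP kinase phosphatases moved both ways with KPT, 2 of 6 higher and 2 lower, with a median of 0.08. DUSP10, which acts on p38 and JNK, rose from 3.26 ± 0.992 to 7.01 ± 0.596 RPKM (0.94, adjusted p = 4.67e-04), and DUSP18 rose by 0.65 (adjusted p = 0.0316, but 0.148 without Stage 3+DMSO replicate 3). DUSP14 fell from 52.8 ± 6.99 to 24.4 ± 1.07 RPKM (-1.08, adjusted p = 4.78e-07), and DUSP7, a cytoplasmic ERK phosphatase, from 34.5 ± 5.73 to 16.6 ± 1.68 (-1.0, adjusted p = 1.70e-05).

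Upstream, EGF and TGFA were listed at 0 in all 12 libraries, NRG2 and NRG3 were too low to test, and the ligand gene EPGN had no row. NRG1 was at 1.40 ± 0.353 RPKM with DMSO and 2.75 ± 1.40 with KPT (adjusted p = 0.0635), and NRG4 at 1.62 ± 0.699 and 0.632 ± 0.397 (adjusted p = 0.0583). AREG at 1194 RPKM thus stood far above every other EGF-family ligand measured in the KPT libraries. Among the receptors, ERBB2 fell from 18.4 ± 1.69 to 13.7 ± 0.822 RPKM (-0.39, adjusted p = 0.00154), ERBB4 rose by 0.44 from 1.09 ± 0.369 RPKM (adjusted p = 0.0271, but 0.121 without Stage 3+DMSO replicate 2), and ERBB3 was too low to test. With no row for EGFR, the ligand levels cannot be set against those of their main receptor.

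Of the 7 genes of ligand shedding, which include the inhibitor TIMP3, 3 rose and 2 fell with KPT, with a median log2 fold change of 0.21. The sheddase ADAM10 rose by 0.55 (adjusted p = 1.32e-04), and ADAM17, the main protease known to release AREG and HBEGF, stood at 82.4 ± 6.04 and 95.8 ± 7.79 RPKM (0.21, adjusted p = 0.131). ADAM12 fell from 66.9 ± 7.48 to 25.8 ± 1.40 (-1.34, adjusted p = 1.32e-08) and RHBDF2, which encodes the ADAM17 partner iRhom2, fell by 0.89 on the log2 scale (adjusted p = 1.52e-05). TIMP3, an inhibitor of ADAM17, rose from 595 ± 63.6 to 989 ± 11.3 RPKM (0.74, adjusted p = 1.90e-05).

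Of the 7 tested genes that restrain or turn over the receptors, 2 rose and 3 fell with KPT, with a median of 0.03. LRIG1, which promotes receptor degradation, rose from 24.7 ± 2.17 to 77.1 ± 3.08 RPKM (1.61, adjusted p = 2.59e-09), while the endocytic adaptor SH3KBP1 (-0.61, adjusted p = 9.96e-05) and the receptor phosphatase PTPRJ (-0.59, adjusted p = 3.49e-05) fell. In the ERK cascade core 8 of 19 rose and 4 fell, with a median log2 fold change of 0.13. RPS6KA1, an ERK-activated S6 kinase, rose from 1.67 ± 0.568 to 12.5 ± 2.1 RPKM (2.36, adjusted p = 6.01e-08), the scaffold KSR1 by 1.08 (adjusted p = 3.09e-07) and the RAS inactivator NF1 by 1.07 (adjusted p = 3.25e-07), whereas the RAS GTPase activator RASA1 (-0.81, adjusted p = 6.55e-05) and the adaptor GAB1 (-0.65, adjusted p = 1.25e-04) fell.

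**Figure D5:**
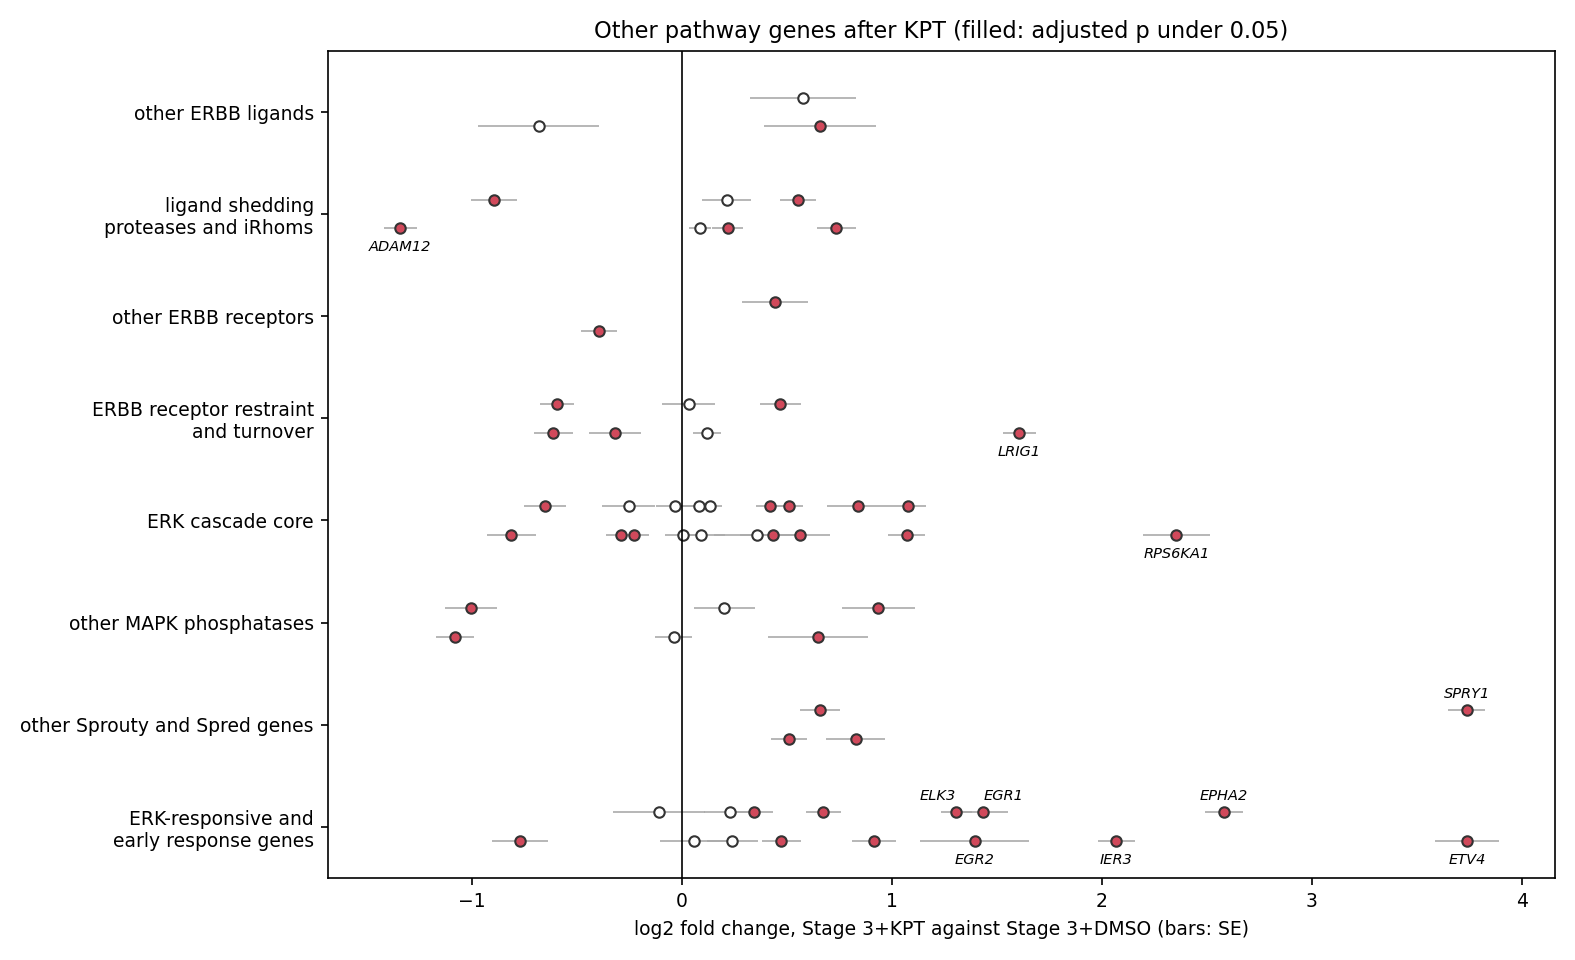
Log2 fold change with KPT against DMSO (horizontal axis, log2(RPKM + 1) scale, SE as bars) of the 63 tested genes of the 8 pathway lists, one point per gene, filled where the adjusted p is under 0.05. SPRY1 and ETV4 lie farthest right at 3.74, ADAM12 farthest left at -1.34, and all 4 Sprouty and Spred genes are filled and right of 0.

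Between the stages fewer genes of the lists were called. From Stage 1 to Stage 2, when the ligands, DUSP1 and DUSP5 were lower, 7 of 63 list genes rose and 15 fell, 34.9% called against 40.7% of all genes. MYC fell from 52.1 ± 3.70 to 19.3 ± 3.12 RPKM (-1.39, SE 0.13, adjusted p = 9.74e-06), and DUSP14 (-0.59, adjusted p = 3.00e-04), DUSP3 (-0.49, adjusted p = 9.35e-04) and FOSL1 (-0.47, adjusted p = 0.00848) fell as well. BTC fell from 1.93 ± 0.446 to 0.695 ± 0.713 RPKM (-0.85, adjusted p = 0.0223), with overlap between its libraries and the call lost without any one of 4 libraries (adjusted p up to 0.088). FOS rose by 0.52 (adjusted p = 0.00438), ETV1 by 0.53 (adjusted p = 5.32e-04), PHLDA1 by 0.56 (adjusted p = 2.57e-04) and TIMP3 by 0.97 (adjusted p = 8.58e-06). Early response genes moved both ways in this comparison.

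From Stage 2 to Stage 3+DMSO, when DUSP4, SPRY2 and SPRY4 were higher, 20 list genes rose and 10 fell, 47.6% called against 44.1% of all genes. After median-ratio rescaling the counts were 13 and 18. TIMP3 rose by 1.65 (adjusted p = 1.15e-07), ETV1 by 0.93 (adjusted p = 5.76e-06), and DUSP10 by 0.72 (adjusted p = 0.00492). ADAM12 (-0.79, adjusted p = 7.28e-06), SPRED3 (-0.63, adjusted p = 1.10e-04) and ELK3 (-0.61, adjusted p = 3.86e-05) fell. Over the whole course from Stage 1 to Stage 3+DMSO, 20 rose and 15 fell, 55.6% called against 47.7% of all genes, with TIMP3 highest at 2.62 (adjusted p = 2.58e-09) and BTC lowest at -1.06 (adjusted p = 0.00565).

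The members' patterns were compared by the root mean square difference of log2(RPKM + 1), centred on each gene, over the 12 libraries. Among the members, DUSP1 and DUSP5 were closest at 0.32, followed by HBEGF and DUSP5 at 0.37, and AREG and EREG differed by 0.85. The last distance depends on the added constant, since EREG was near 0 with DMSO. Of 10771 other tested genes with a symbol, those nearest to AREG were DIO2, the deiodinase that activates thyroid hormone (0.77), and HSD3B1, a steroid-synthesis enzyme (0.78), beside a spread of AREG itself of 2.88. DIO2 went from 1.83 ± 1.37 RPKM with DMSO to 404 ± 15.3 with KPT. HSD3B1 was also low with DMSO, at 0.450 ± 0.171 RPKM, so its distance too depends on the constant. EREG was nearest to the chemokine gene CXCL8 (0.33) and the natriuretic peptide gene NPPB (0.42), with an own spread of 2.09. CXCL8 had 5.29 ± 0.873, 1.36 ± 0.381, 1.89 ± 0.490 and 80.6 ± 9.57 RPKM from Stage 1 to Stage 3+KPT.

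For HBEGF, the nearest genes were SLITRK2 (0.19) and the receptor tyrosine kinase gene MET (0.29), which had 9.08 ± 0.864 RPKM in Stage 1, 3.43 ± 0.217 in Stage 2, 3.81 ± 0.309 with DMSO and 13.7 ± 0.807 with KPT. DUSP1 was nearest to the protease gene CTSC and to B3GNT2 (both 0.15), and DUSP5 to GFI1 (0.11) and CIART (0.16). GFI1 was low, at 0.701 ± 0.427, 0.0254 ± 0.0440, 0.197 ± 0.184 and 1.34 ± 0.179 RPKM from Stage 1 to Stage 3+KPT. At such levels the RPKM + 1 scale understates changes. DUSP4 was nearest to the transcription factor gene TBX3 (0.19) and the protease gene CTSK (0.25), SPRY2 to PNP (0.16) and ID2 (0.19), and SPRY4 to NEURL2 and C12orf57 (both 0.22). TBX3 rose from 16.6 ± 1.99 to 115 ± 5.62 RPKM between DMSO and KPT, as DUSP4 did at a lower level. These distances are descriptions over libraries that share their groups.

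The cell type of the label was read from marker lists. Summed RPKM of 9 valve interstitial and fibroblast markers was 20123 to 21033 in Stage 1, 27411 to 28379 in Stage 2, 25545 to 28238 with DMSO and 13798 to 14606 with KPT. VIM, COL1A2 and COL3A1 carry most of that sum. With KPT, VIM differed by -1.22, COL1A2 by -1.10 and COL3A1 by -0.42 (adjusted p = 1.20e-08, 5.99e-08 and 0.00625). THY1 differed by -1.04, TCF21 by -0.65 and PDGFRB by -0.34 (adjusted p = 8.73e-09, 0.00146 and 0.00173). DCN rose by 0.34 and LUM by 0.33 (adjusted p = 0.00118 and 0.0232), while PDGFRA differed by 0.04 (adjusted p = 0.709). The sum of 3 smooth muscle markers was 1302 to 1369, 1167 to 1510, 494 to 551 and 87.9 to 118 in the same order. Of 6 endothelial markers 3 were tested and their sum was 11.2 to 16.6 with DMSO and 6.89 to 11.1 with KPT. Of 7 leukocyte markers 2 were tested, with sums of 14.3 to 15.1 and 12.5 to 15.5, and ITGAM was at 0 in all libraries. The 6 epithelial markers with a row were all below 1 RPKM, with KRT5 and KRT19 at 0, and their sum was at most 0.0418 with KPT, where AREG was at 1109 to 1252. The part of these marker differences in the member differences was not tested, and in these bulk libraries fewer cells of a type and less RNA per cell cannot be told apart.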

How the data were processed

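Messenger RNA libraries (TruSeq Stranded mRNA, 500 ng of RNA) were made from 12 cultures in 4 groups of 3. TopHat2 2.1.0 made the alignments, per the submitters' processing notes. A counter, genome build, annotation and the use of strand in counting are not named in the sources used here. Deposited by the authors were RPKM values of 22861 genes and 189618 exons. Multiplied by exon length and a library total, 100% of these values gave whole reads within 0.0001 of a read. The sum of these reads per library was 23287593 to 43293744. It exceeded the library total by a factor of 1.751 to 1.813, for a reason that is not stated, so counting intervals may be too narrow.

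Differences were fitted with limma 3.58.1 (R 4.3.3) on log2(RPKM + 1) in one model over the 12 libraries with a coefficient per group and an expression trend, over 13046 genes at or above 1 RPKM in at least 3 libraries, of which 10779 had a symbol. This scale understates changes of low genes. Calls were made at a Benjamini-Hochberg adjusted p below 0.05, and the pipeline was tested on simulated data. The members and lists were chosen with earlier results of these data known. Beside the 8 members with a row, the named genes are, for each list and comparison, up to 3 called genes in each direction by size, further genes of lists under discussion, and the 2 genes nearest in pattern to each member. Some are left out for length, and the genes within 250 kb of AREG and EREG were named for their position. Alternatives were a minimum RPKM of 5, no filter, a pseudocount of 0.1 or 0.5, median-ratio rescaling, quantile normalization, no trend, the groups of a comparison alone, library quality weights, a replicate block, limma-voom on recovered reads and leaving out each library.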

Additional observations from a re-analysis of the deposited data

How the results depend on the processing

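None of the 736 values of members under alternatives changed the sign of a called difference. With KPT, AREG, EREG, HBEGF, DUSP1, DUSP4, DUSP5 and SPRY2 were called in all 23 alternatives and SPRY4 in none, so the count stayed at 7. The count of members called lower from Stage 2 to Stage 3+DMSO, 1, was 2 at a minimum RPKM of 5, with median-ratio rescaling, quantile normalization, limma-voom or the replicate block, 0 with the groups compared alone, and 1 to 2 when single libraries were left out. Of the list genes, those called higher from Stage 1 to Stage 2 numbered 7, against 11 with median-ratio rescaling and 13 with library quality weights. From Stage 2 to Stage 3+DMSO, 20 were higher and 10 lower, against 13 and 18 with median-ratio rescaling, and 17 were lower with quantile normalization. The cause of these shifts was not tested. Over all genes, leaving out single libraries gave 4332 to 5628 calls from Stage 1 to Stage 2, 4938 to 5685 from Stage 2 to Stage 3+DMSO, 5300 to 6594 from Stage 1 to Stage 3+DMSO and 7118 to 8052 with KPT.

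Replicate numbers did not pair the libraries, since deviations of libraries with the same number correlated at -0.071 to 0.075. With the replicate block the calls over all genes were 5133, 5641, 6078 and 7725 in the same order, against 5308, 5755, 6226 and 7831 without it. From Stage 2 to Stage 3+DMSO the block added the calls of DUSP5 (higher) and DUSP1 (lower), for 4 members higher and 2 lower against 3 and 1. Depth limits EREG most, with 2 reads in Stage 3+DMSO, and its log2 fold changes moved with the pseudocount.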
